A study of Mus musculus with 124 samples.

Results

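Among 28 unexposed mouse blastocysts, the level of Tspan8 varied over a continuous range, and the libraries were ranked by it. The 14 control (Ctrl) libraries with the highest Tspan8, here the Tspan8-high group, were set against the 14 with the lowest, the Tspan8-low group, across all other expressed genes. These 28 are part of 80 RNA libraries and 124 samples in the series. The groups were chosen by measured Tspan8, so its values are a description and carry no test. It had been proposed as a measure of trophectoderm maturity. Of 18 tested members of a list of trophectoderm transcription factors, 2 passed the limma test as higher in the Tspan8-high group, against 0.348% of all genes. These were Elf5 and Mbnl3, of which Mbnl3 encodes an RNA-binding splicing regulator. Neither was called with a second tool, edgeR, or with a term for Y-linked transcripts in the limma fit. Maturity itself was not tested, so the groups are called here by their Tspan8 level only.

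The study compared mice exposed to human chorionic gonadotropin (hCG), the hormone given to trigger ovulation, with unexposed mice. Whole blastocysts were flushed from the uterus at 3.5 days post coitum and sequenced with Smart-seq2, a method that copies polyadenylated RNA from very small samples, in 28 Ctrl and 28 hCG libraries. Females of the hCG arm were in natural estrus and had received 7.5 IU of hCG into the peritoneum without hormonal priming, and Ctrl females in estrus had received none. The protocol describes housing of Ctrl females with a vasectomised male before oocyte collection. Strain, genotype, maternal age, litter, embryo sex and how the blastocysts were sired are not given in the sources used here. Whether every library came from 1 embryo, and which embryos had the same mother, is likewise unstated, so p-values measure the spread between these libraries only. The hCG blastocysts were ranked by Tspan8 in the same way and used as a second set of libraries, which the ranking of the controls did not touch.

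The blastocyst has an outer epithelium, the trophectoderm, which pumps fluid into the cavity and later forms the placenta, and an inner cell mass that gives rise to the epiblast and the primitive endoderm. Tspan8 encodes a tetraspanin, a protein that crosses the membrane several times and organises integrins and other surface proteins into clusters. Sex-linked RNA matters below. Genes on the Y chromosome are transcribed only in male cells, whereas Xist is transcribed from the X chromosome that female cells silence. X inactivation in the mouse blastocyst is imprinted in the trophectoderm and incomplete or reversed in the inner cell mass, so the X-linked dose can differ between the sexes at this stage.

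Tspan8 lies at chr10:115816817-115849893 (GRCm38.p6). Levels are given as CPM, a gene's share of its library's total scaled to a common library size. In the Tspan8-high control group it ran from 760.0 to 1637 CPM with a median of 1238, and in the Tspan8-low group from 177 to 753 CPM with a median of 522. There was no gap at the boundary. The library just inside, Ctrl 23, had 760.0 CPM and the library just outside, Ctrl 8, had 753 CPM. Ctrl 7 was the highest and Ctrl 28 the lowest. Between 942 and 12238 estimated reads per library lay behind these values, so counting error was small beside the range. Tspan8 was nearly absent from the 6 control oocytes, at 1.61 ± 1.62 CPM (SD, n = 6). In the hCG blastocysts it ran from 17.6 to 1042 CPM, with medians of 622 CPM in the Tspan8-high and 204 CPM in the Tspan8-low group.

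**Figure D1:**
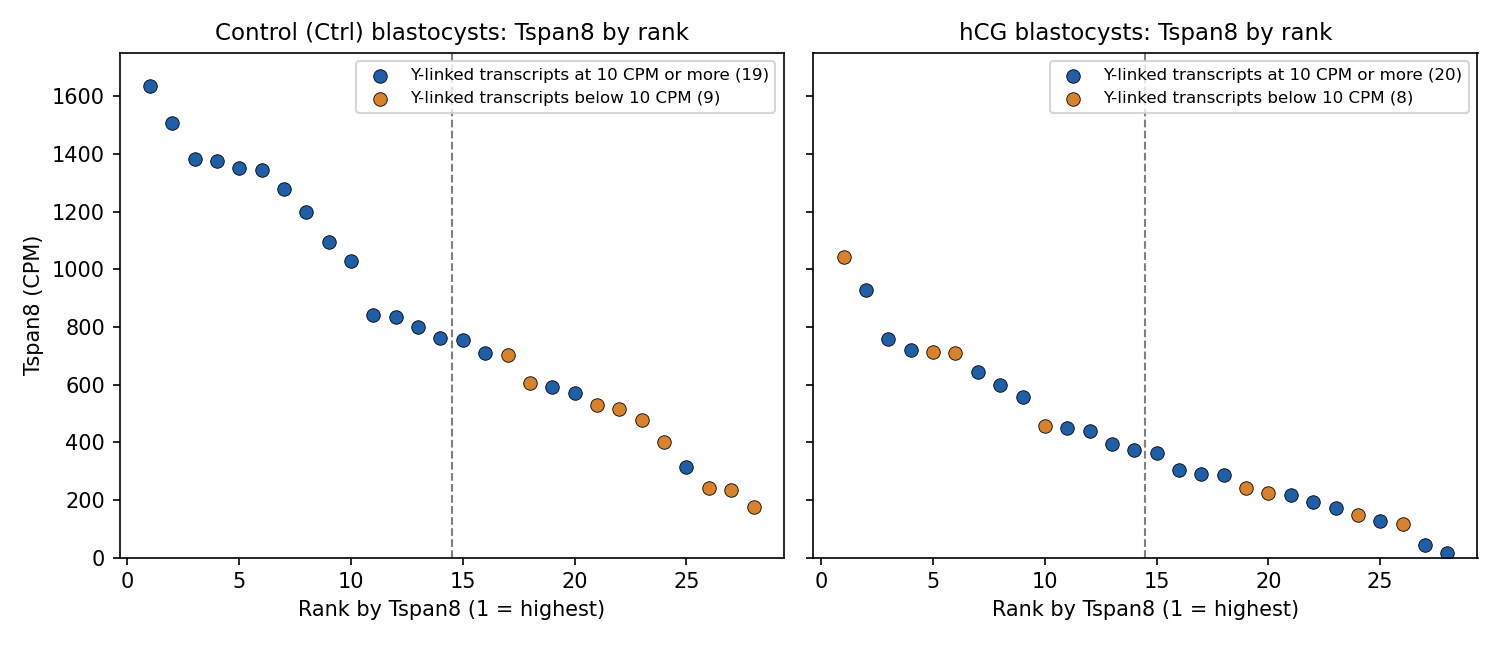
Tspan8 (CPM) against its rank in the 28 control libraries (left) and the 28 hCG libraries (right), one point per library, with the boundary between ranks 14 and 15 dashed. Blue points had summed Y-linked transcripts of 10 CPM or more and orange points less. All 14 control libraries left of the boundary are blue, and 9 of the 14 to its right are orange.

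The control groups differed in Y-linked transcripts. The summed level of Ddx3y, Eif2s3y, Kdm5d and Uty was 157 to 406 CPM in all 14 Tspan8-high libraries. In the Tspan8-low group it was 198 to 279 CPM in 5 libraries and at most 0.201 CPM in the other 9, whose Xist was at 147 to 494 CPM. The 19 libraries with Y-linked transcripts had Xist at 0.318 to 19.2 CPM. Every control library thus carried one kind of RNA or the other. Fisher's exact test of Y-linked transcripts against Tspan8 group gave p = 0.00058 (two-sided, 14 of 14 against 5 of 14). Tspan8 had a median of 1029 CPM in the 19 libraries with Y-linked transcripts, from 315 to 1637, and of 477 CPM in the 9 without, from 177 to 701. No library without Y-linked transcripts was in the Tspan8-high group, so the Tspan8 group and this difference between libraries overlap in the controls. In the hCG blastocysts 10 of 14 libraries had Y-linked transcripts in either group (Fisher's exact p = 1). Tspan8 differed there by 0.25 on the log2 scale between the 8 libraries without and the 20 with Y-linked transcripts (exact permutation p = 0.662 over 3108105 regroupings, two-sided). Whether the relation differs between the arms was not tested. In 5 hCG libraries, but no control library, Xist at 50 CPM or more and Y-linked transcripts occurred together.

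Other properties of the control libraries overlapped between the groups. Estimated reads ran from 3043231 to 10859379 per library, with 5749567 ± 1809286 (SD, n = 14) in the Tspan8-high and 6435838 ± 2056364 (SD, n = 14) in the Tspan8-low group (permutation test, adjusted p = 0.357 over 4 measures). Genes detected were 12763 ± 1030 and 13174 ± 414 (adjusted p = 0.262, permutation). The 50 most abundant genes took 20.3 ± 2.91% and 18.7 ± 0.804% of the reads (permutation p = 0.0203, adjusted 0.0814). Ctrl 12, with 10382 genes and the fewest reads, and Ctrl 26, with 10720 genes, stood apart, and both were in the Tspan8-high group. The other control libraries had at least 12203 genes. Of 26 markers of uterine epithelium, stroma and blood, 7 were high enough to test and none was called. Their summed level was 128 to 240 CPM in the Tspan8-high and 157 to 448 CPM in the Tspan8-low group (permutation, adjusted p = 0.262), and Sprr2f, Col1a2, Col3a1, Dcn, Lum, Hbb-bs and Ptprc were among 11 listed at 0 in all 28 libraries.

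Of 10619 genes tested with limma, 37 were higher in the Tspan8-high control group (0.348% of genes) and 63 lower (0.593%), 100 in all (0.942%), at a Benjamini-Hochberg adjusted p under 0.05. Such a call says that a gene went with the Tspan8 ranking across these libraries. In no gene were the 2 groups free of overlap (0%). With log2 Tspan8 as a continuous predictor in place of the groups, 105 genes rose with it (0.989%) and 105 fell (0.989%), 1.98% together. By chromosome, 5 of the 37 higher genes were Y-linked and 15 of the 63 lower genes X-linked. These calls did not survive a term for Y-linked transcripts. With that term in the limma fit, 0 genes passed in either direction (0%), with 295 higher and 443 lower at an unadjusted p under 0.05, and no second tool was run on this design. As every Tspan8-high library had Y-linked transcripts, this term leaves only 14 libraries against 5 to compare. Among those 19 libraries alone the counts were again 0 and 0 (unadjusted 234 and 354, limma).

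The called autosomal genes kept their direction with the term, at smaller sizes. The median of the 31 higher ones was 0.96 on the log2 scale without and 0.60 with it, and that of the 48 lower ones −1.14 and −0.98. Single genes moved further, such as Gulp1 from 1.10 to 0.53 and Hk1 from −1.38 to −0.36. The smallest adjusted p was that of Lima1, at 0.398. Since the same libraries chose these genes and give both estimates, this sameness of direction is a description. The 18 outermost of the 19 libraries with Y-linked transcripts were also split anew, 9 highest against 9 lowest in Tspan8. There 26 genes were higher (0.245%) and 171 lower (1.61%), 1.86% together. Ctrl 12 and 26, the libraries with the fewest genes, were both among the 9 highest, and the split was not repeated without them. Ctrl 3, 9, 13 and 23 of the Tspan8-high group were among the 9 lowest. This split reuses control libraries that had chosen the called genes, so a call in both is a description. Of the 100 genes called in the full comparison, 3 of the higher and 9 of the lower ones were called in that split too. Among the 55 called genes named here these were Slc15a2, Gng2, Isyna1, Psmd1, Psmd12 and Sgsm3 (6 of 55). Without Ctrl 12 and 26 the comparison gave 52 higher and 50 lower genes, among them 31 of the 37 higher and 40 of the 63 lower ones. Of the genes named here, Cystm1, Sgsm3, Dgat2, Cldn6, Hk1, Psmd12, Tspan7 and Tsix were no longer called.

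Of the 7 Y-linked genes tested, 5 were higher in the Tspan8-high control group. Ddx3y, an RNA helicase gene, was at 55.7 to 99.3 CPM (median 73.1) in the Tspan8-high group. In the Tspan8-low group it was at 58.9 to 72.6 CPM in the 5 libraries with Y-linked transcripts and at 0 in the other 9. The groups overlapped wherever Ddx3y was present at all. The log2 difference was 4.14 ± 0.79 (SE, adjusted p = 0.00975) and became 0.27 ± 0.22 with the term for Y-linked transcripts. Eif2s3y, which encodes a subunit of translation initiation factor eIF2, differed by 4.57 ± 0.95 (adjusted p = 0.0173) and by −0.01 ± 0.24 with the term. Usp9y (2.83 ± 0.54), Uty (2.09 ± 0.45) and Kdm5d (2.05 ± 0.40), genes for a deubiquitinase and for relatives of histone demethylases, completed the set (adjusted p = 0.00699, 0.015 and 0.00699). On estimated reads, edgeR and DESeq2 called none of these 5 (edgeR adjusted p from 0.257 to 0.495). Fitted differences of Y-linked genes depend on the pseudocount, because 9 libraries lie at or near 0. None of the 7 was called between the hCG groups.

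X-linked genes lay to the low side. Of 365 X-linked genes tested, 15 were lower in the Tspan8-high control group (4.11%) and 1 higher, with a median log2 difference of −0.28 and 75.6% of differences below 0. Of 10185 autosomal genes, 48 were lower (0.471%) and 31 higher, with a median of −0.03 and 53.7% below 0. With the term for Y-linked transcripts the X-linked median was −0.04. The fit also gave the difference between libraries with and without Y-linked transcripts, which rests on 5 against 9 libraries inside the Tspan8-low group. There 9 genes were higher with Y-linked transcripts (0.0848%), all 7 Y-linked genes among them, and 15 lower (0.141%), all of them X-linked, 0.226% together.

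Taf1, an X-linked gene for the largest subunit of the general transcription factor TFIID, shows the pattern. Taf1, Nkap and Rbbp7 were chosen after their values were seen. It was at 10.2 to 44.9 CPM (median 25.1) in the Tspan8-high group. Within the Tspan8-low group it was at 21.8 to 37.7 CPM in the 5 libraries with Y-linked transcripts and at 51.6 to 91.6 CPM in the 9 without. The low libraries with Y-linked transcripts thus lay inside the range of the high group, and those without lay above it. The log2 difference between the groups was −1.01 ± 0.22 (adjusted p = 0.0155) and −0.22 ± 0.24 with the term, while that between libraries with and without Y-linked transcripts was −1.23 (adjusted p = 0.018). Nkap, a transcriptional repressor, differed by −0.92 ± 0.19, and by −0.33 ± 0.23 with the term. Ebp, the sterol isomerase of cholesterol synthesis, differed by −0.70 ± 0.15 and still by −0.48 ± 0.20 with the term. Its levels in the low libraries overlapped, at 135 to 247 CPM with and 176 to 281 CPM without Y-linked transcripts. Rbbp7, a histone-binding chromatin protein, had a log2 difference of −1.02 ± 0.21 (−0.57 ± 0.27 with the term). The adjusted p of these 3 genes between the groups ran from 0.0109 to 0.0126.

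Tsix, the antisense transcript of Xist, was at 2.98 to 17.4 CPM in the Tspan8-high and 5.09 to 132 CPM in the Tspan8-low group (log2 difference −1.97 ± 0.49, adjusted p = 0.0433). Because Smart-seq2 does not mark the strand, its reads and those of Xist cannot be told apart. With the term its difference turned to 0.40 ± 0.30. Tspan7, an X-linked relative of Tspan8 and the only called member of 20 tested tetraspanins, was at 0 to 13.7 CPM in the Tspan8-high and 0 to 110.0 CPM in the Tspan8-low group. Its log2 difference of −2.65 ± 0.64 (adjusted p = 0.0349) became −0.35 ± 0.64 with the term. Its median in the low libraries was 0 CPM with and 20.5 CPM without Y-linked transcripts. Lamp2, a lysosomal membrane protein gene on the X chromosome, was lower by −0.81 ± 0.18 (adjusted p = 0.0193) and by −0.41 ± 0.24 with the term, and was the 1 of the 15 lower X-linked genes also called between the hCG groups (−0.53 ± 0.14, adjusted p = 0.0246).

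**Figure D2:**
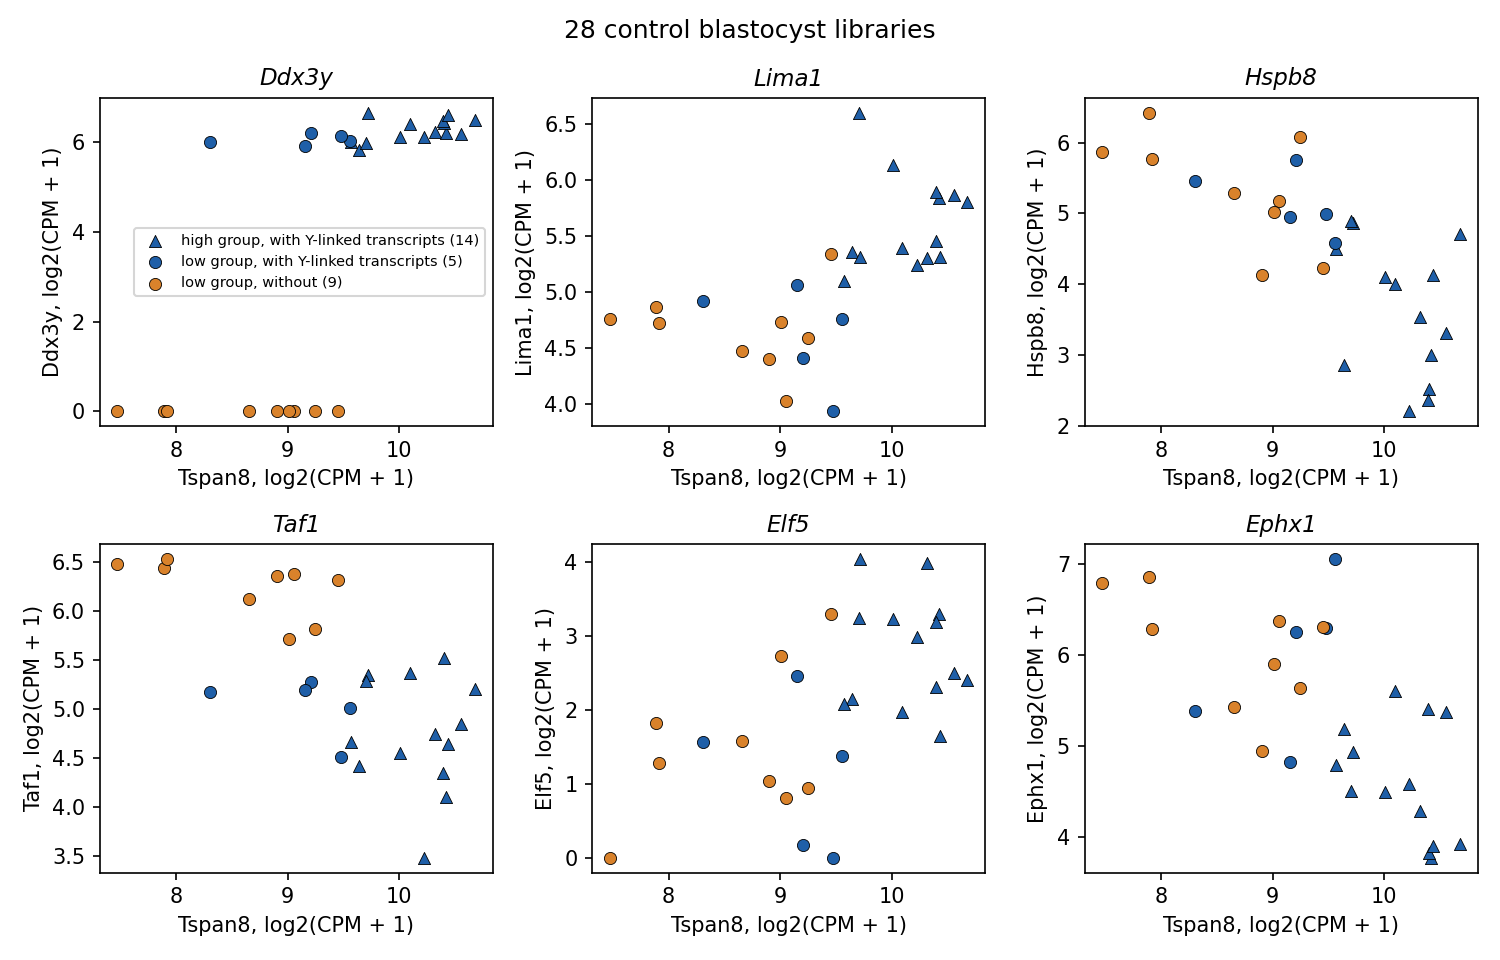
Level of 6 genes against Tspan8, both as log2(CPM + 1), in the 28 control libraries. Triangles are the Tspan8-high and circles the Tspan8-low group, blue with and orange without Y-linked transcripts. Ddx3y and Taf1 separate the orange circles from all blue points, whereas in Lima1, Elf5, Hspb8 and Ephx1 blue and orange circles mix.

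Trophectoderm transcription factors came first among the lists of named genes. Of 18 tested out of 22, 2 were higher in the Tspan8-high control group and none lower, where 0.348% of all genes were higher, with a list median of 0.09 against −0.04 over all genes. The 2 called genes, Elf5 and Mbnl3, were also called between the hCG groups. In whole embryos, fewer cells of a type and less RNA per cell cannot be told apart.

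The 250 bases before the annotated start of these 2 genes, and of Gpd1l, the gene with the lowest rank correlation with Tspan8, are printed because the 3 genes were called in both arms and their windows overlap no gene in the RefSeq table (GRCm38.p6). They were chosen after their values were seen. Capitals mark matches to a motif bound by TEAD factors, GGAATG, searched on both strands.
Elf5, chr2:103411848-103412097 (plus strand): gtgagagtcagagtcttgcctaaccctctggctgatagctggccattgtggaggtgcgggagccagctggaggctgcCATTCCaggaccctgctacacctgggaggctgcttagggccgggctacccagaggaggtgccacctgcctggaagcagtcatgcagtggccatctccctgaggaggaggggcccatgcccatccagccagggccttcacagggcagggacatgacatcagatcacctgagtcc
Mbnl3, chrX:51205991-51206240 (minus strand): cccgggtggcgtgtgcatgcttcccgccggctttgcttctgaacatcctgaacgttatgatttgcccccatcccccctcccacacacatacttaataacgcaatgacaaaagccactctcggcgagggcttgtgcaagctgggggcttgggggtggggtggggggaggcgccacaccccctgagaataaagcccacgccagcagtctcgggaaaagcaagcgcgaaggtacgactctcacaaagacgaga
Gpd1l, chr9:114933988-114934237 (minus strand): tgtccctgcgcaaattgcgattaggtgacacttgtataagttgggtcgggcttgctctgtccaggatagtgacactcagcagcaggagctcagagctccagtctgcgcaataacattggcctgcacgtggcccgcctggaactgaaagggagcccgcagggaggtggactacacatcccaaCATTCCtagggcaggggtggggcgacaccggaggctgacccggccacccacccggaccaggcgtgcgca
Elf5 had 1 match, on the reverse strand, beginning 173 bases before the start, and Gpd1l 1, also reverse, beginning 69 bases before it. The motif occurs in 12.6% of 32851 such windows. Neither AGATAA, bound by GATA factors and found in 9.99% of windows, nor GCCNNNGGC, bound by AP-2 factors and found in 13.7%, occurred in these letters. The motifs do not overlap one another, and a match is only a string of letters.

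Elf5 encodes an ETS transcription factor that marks the trophoblast stem cell lineage. It was at 2.14 to 15.4 CPM (median 5.78) in the Tspan8-high and 0 to 8.84 CPM (median 1.51) in the Tspan8-low group. All 14 high libraries lay above the median of the low group, though the ranges overlapped. The log2 difference was 1.45 ± 0.33 (adjusted p = 0.0193), 1.70 ± 0.45 with the term for Y-linked transcripts (adjusted p = 0.617), and 1.42 ± 0.35 between the hCG groups (adjusted p = 0.0156). Medians in the low group were 1.59 CPM with and 1.43 CPM without Y-linked transcripts. In the split of libraries with these transcripts the difference was 0.88 ± 0.46 (adjusted p = 0.294). Mbnl3, which stands in this list as a trophectoderm gene and encodes an RNA-binding splicing regulator, lies on the X chromosome. It was at 77.2 to 351 CPM (median 150.2) in the Tspan8-high and 30.4 to 166 CPM (median 78.9) in the Tspan8-low group, with 13 of 14 high libraries above the low median. Its log2 difference of 0.92 ± 0.23 (adjusted p = 0.0402) was 0.60 ± 0.31 with the term (adjusted p = 0.687) and 1.23 ± 0.28 between the hCG groups (adjusted p = 0.00993), and 0.63 ± 0.25 in the split (adjusted p = 0.163). It was the only X-linked gene called higher in the Tspan8-high control group. With edgeR on estimated reads neither Elf5 (adjusted p = 0.133) nor Mbnl3 (adjusted p = 0.0588) was called, while DESeq2 called both (adjusted p = 0.0359 and 0.0103).

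The other 16 members of the list gave no call. Cdx2, the factor that specifies trophectoderm, had medians of 26.3 and 32.6 CPM in the high and low groups, within ranges of 9.21 to 111 and 19.8 to 70.2 CPM. Gata3, which acts beside Cdx2, had medians of 1102 and 1495 CPM (log2 difference −0.27 ± 0.27, adjusted p = 0.68). These values overlapped almost wholly. Gata2 (0.49 ± 0.17), Tfap2a (0.57 ± 0.22), Eomes (0.55 ± 0.22), Grhl1 (0.57 ± 0.29) and Id2 (0.33 ± 0.17) had positive log2 differences that missed the threshold, with adjusted p from 0.145 to 0.366. Klf6 (−0.44 ± 0.20), Tead4 (−0.30 ± 0.16) and Arid3a (−0.70 ± 0.36) had negative ones, with adjusted p from 0.31 to 0.407. Klf5, Tfap2c, Grhl2, Elf3, Msx2 and Ets2 had high and low medians of 282 and 261, 39.3 and 49.2, 60.8 and 62.8, 233 and 234, 13.7 and 13.9, and 7.07 and 7.32 CPM. Between the hCG groups, 3.03% of all genes were higher and 1.95% lower. There 4 members of this list were higher and 2 lower. Eomes (0.63 ± 0.19, adjusted p = 0.0461) and Id2 (0.61 ± 0.15, adjusted p = 0.0174) were among the higher ones. Tead4 (−0.48 ± 0.13, adjusted p = 0.0271) and Arid3a (−0.92 ± 0.26, adjusted p = 0.0359) were the lower ones.

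Structural and maturing trophectoderm genes gave 1 limma call in the controls. Of 20 tested keratin and surface genes, Gsta4, a glutathione transferase, was higher at 154 to 277 CPM against 76.0 to 243 CPM (0.60 ± 0.16, adjusted p = 0.0474), and the list median was 0.21. It was higher between the hCG groups too (0.96 ± 0.18, adjusted p = 0.00183). Krt8 and Krt18, the keratins of the trophectoderm, had high and low medians of 861 and 1097 CPM and of 1889 and 2588 CPM, with wide overlap. None of 15 tested mural trophectoderm and early placental genes was called with limma or edgeR, and their median was −0.17. At an unadjusted limma p under 0.05, 2 were higher and 3 lower. DESeq2 called 1 of them as higher, where it called 113 of all 10619 genes as higher. Plac1, an X-linked placental gene named after its values were seen, came nearest with 68.5 to 389 CPM against 26.8 to 187 CPM (1.01 ± 0.28, adjusted p = 0.0728). Its difference was 1.39 ± 0.38 with the term (adjusted p = 0.617) and 2.30 ± 0.45 between the hCG groups (adjusted p = 0.00509). Between the hCG groups 3 of the 20 keratin and surface genes and 2 of the 15 mural and placental genes were higher. In both lists 0 were lower there, and 3.03% of all genes were higher.

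The lists for the other lineages moved by different amounts. None of 24 tested genes of the inner cell mass and epiblast was called, with a median of −0.12 (limma, 2 higher and 3 lower unadjusted; edgeR 0, DESeq2 0). Nanog, the epiblast factor, was at 53.1 to 222 CPM in the high and 72.0 to 361 CPM in the low group (−0.70 ± 0.24, adjusted p = 0.145; −0.07 ± 0.29 with the term for Y-linked transcripts), and was named after its values were seen. Of 17 tested primitive endoderm genes 1 was higher with limma, 2 with DESeq2 and 0 with edgeR. Over all genes tested, DESeq2 called 113 as higher and edgeR 20. At an unadjusted p under 0.05 in limma, 6 were higher and 1 lower, against 586 and 948 of all 10619 genes. The list median was 0.47 in the control groups, 0.60 in the hCG groups and 0.03 in the split of libraries with Y-linked transcripts. Lama1, the gene called with limma, encodes the laminin α1 chain of the early basement membrane. It was at 11.5 to 113 CPM (median 31.3) in the Tspan8-high and 1.52 to 80.1 CPM (median 9.58) in the Tspan8-low group, with all 14 high libraries above the low median. The log2 difference was 1.72 ± 0.35 (adjusted p = 0.0106), 1.55 ± 0.49 with the term (adjusted p = 0.673) and 1.59 ± 0.30 between the hCG groups (adjusted p = 0.00191). In the split of libraries with Y-linked transcripts it was 0.47 ± 0.57 (adjusted p = 0.687).

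Lists on epithelium, signalling and metabolism held at most 1 limma call each, where 0.348% of all genes were higher and 0.593% lower. DESeq2 called more of all 10619 genes, 113 higher and 112 lower. Among these lists it called 4 lower p53 targets, 2 lower lysosomal genes, and 2 higher and 1 lower among ion pumps, transporters and water channels. It called 1 lower gene each for junctions, cholesterol synthesis and glycolysis. Cldn6, a tight junction claudin, was the 1 lower gene of 27 junction genes, at 20.7 to 359 CPM against 111 to 587 CPM (−1.14 ± 0.29, adjusted p = 0.0444; −1.20 ± 0.40 with the term). Slc9a3r1, a scaffold that anchors transporters at the apical membrane, was the 1 higher gene of 15 ion pumps, transporters and water channels. It was at 53.7 to 258 CPM against 27.03 to 147 CPM (0.94 ± 0.22, adjusted p = 0.0193; 1.19 ± 0.30 with the term, adjusted p = 0.617). Mdm2, the ubiquitin ligase of p53 and itself a p53 target, was the 1 lower gene of 21 in its list (−0.72 ± 0.19, adjusted p = 0.0474), which had a median of −0.40, and of −0.12 with the term. Hk1, a hexokinase, was the 1 lower gene of 15 in glycolysis (−1.38 ± 0.36, adjusted p = 0.0474; −0.36 ± 0.44 with the term). Ebp and Lamp2, described above, were the single lower members among 22 cholesterol synthesis and 25 lysosomal genes. At an unadjusted limma p under 0.05, 586 of all 10619 genes were higher and 948 lower. By that measure the p53 list had 0 higher and 9 lower, the lysosomal list 0 and 7 and the transporter list 5 and 1. The junction list had 2 and 2, cholesterol synthesis 0 and 2 and glycolysis 1 and 2. Of 22 Hippo pathway, 29 cell cycle, 19 DNA methylation, 10 integrin and matrix receptor and 8 maternal oocyte genes tested with limma, none was called at the adjusted threshold. At an unadjusted p under 0.05 the Hippo list had 2 higher and 1 lower, the cell cycle list 2 and 2, DNA methylation 0 and 0, integrins 0 and 1 and maternal genes 0 and 1, and edgeR and DESeq2 called none of them but 1 higher Hippo gene with DESeq2. Their medians lay between −0.13 and 0.18.

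**Figure D3:**
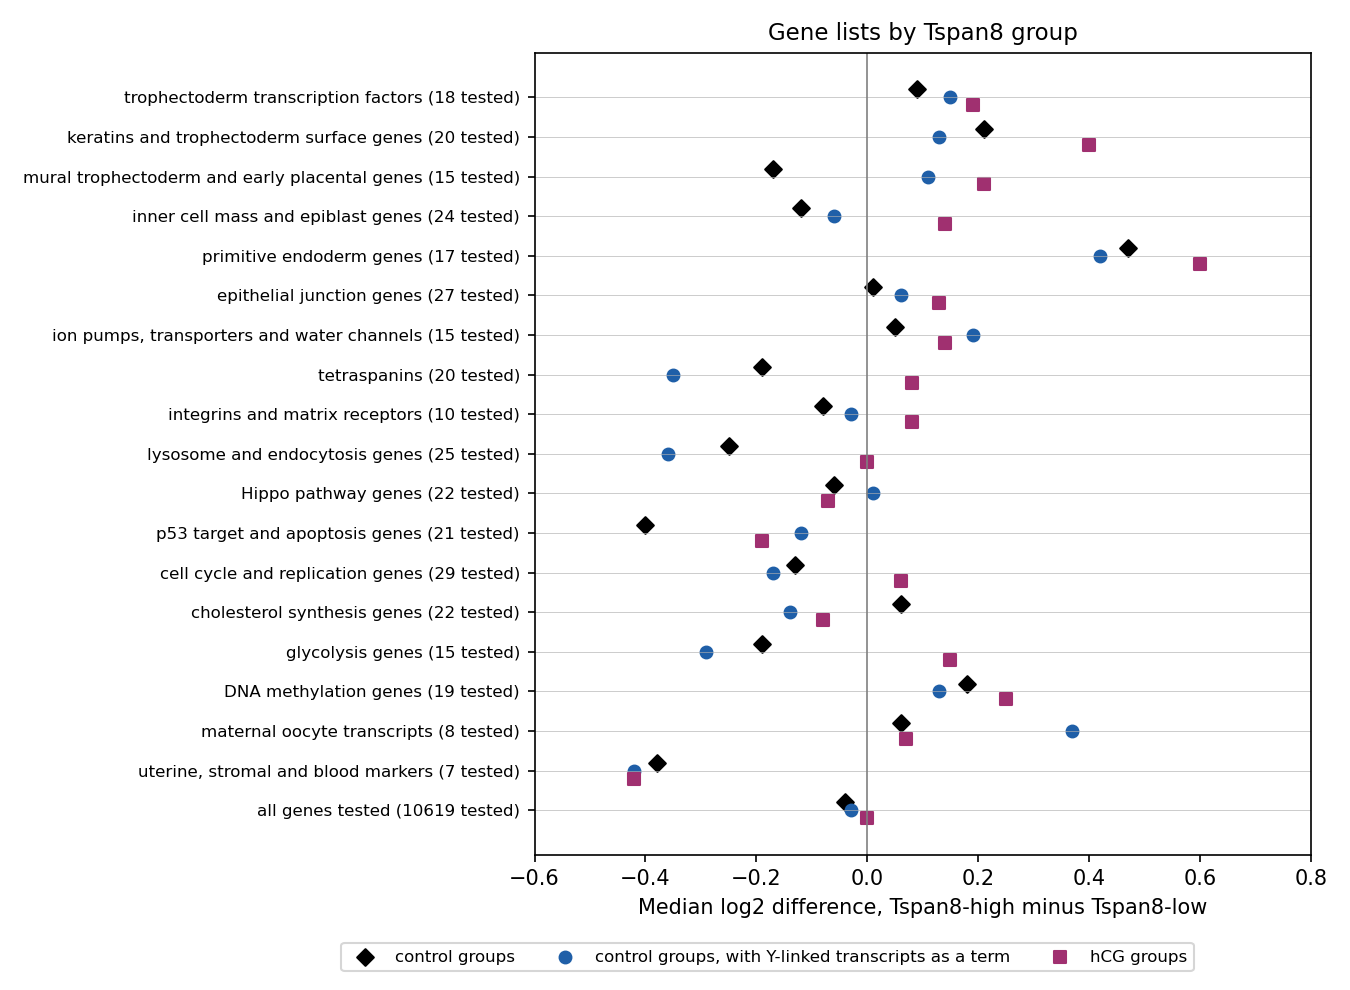
Median log2 difference between the Tspan8-high and Tspan8-low groups for 18 gene lists and for all genes tested. Diamonds are the control groups, circles the control groups with Y-linked transcripts as a term, and squares the hCG groups. The control medians run from −0.40 for p53 targets to 0.47 for primitive endoderm genes, around −0.04 for all genes.

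The gene with the smallest p in the control groups was Lima1, which encodes an actin-bundling LIM protein. It was at 33.2 to 96.0 CPM (median 41.98) in the Tspan8-high and 14.2 to 39.5 CPM (median 25.5) in the Tspan8-low group. All 14 high libraries lay above the low median, and in the low group libraries with and without Y-linked transcripts had nearly equal medians of 26.03 and 25.4 CPM. The log2 difference was 1.02 ± 0.16 (adjusted p = 0.00256), 1.06 ± 0.23 with the term and 1.24 ± 0.21 between the hCG groups (adjusted p = 0.000668). In the split of libraries with Y-linked transcripts it was 0.63 ± 0.25 (adjusted p = 0.16). Slc15a2, a peptide transporter named after its values were seen, was at 139 to 758 CPM (median 353) against 97.3 to 339 CPM (median 166). Its log2 difference of 1.06 ± 0.21 (adjusted p = 0.00968) was 1.31 ± 0.29 with the term (adjusted p = 0.402), 1.36 in the split of libraries with Y-linked transcripts (adjusted p = 0.00616) and 2.00 ± 0.26 between the hCG groups (adjusted p = 0.000106). It was thus called in each of these comparisons except the one with the term, though the split reuses the same control libraries.

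Several other higher genes encode proteins of the actin cytoskeleton, a grouping made after the values were seen and not covered by any list. Of its members only Myl9 and Pdlim5 fell under the rule for named genes. Myl9, a regulatory light chain of myosin, was at 1.61 to 144 CPM (median 13.4) in the Tspan8-high and 0 to 33.6 CPM (median 1.93) in the Tspan8-low group (2.46 ± 0.55, adjusted p = 0.0193; 1.74 ± 0.44 between the hCG groups, adjusted p = 0.0189). With the term its difference was 1.48 ± 0.73. Lcp1, an actin bundler, was at 119.5 to 544 CPM against 62.8 to 353 CPM (0.99 ± 0.25, adjusted p = 0.0458; 1.80 ± 0.29 between the hCG groups, adjusted p = 0.000723; 0.56 ± 0.33 with the term). In the split neither was called (0.86 ± 0.77 for Myl9, 0.24 ± 0.28 for Lcp1). Both were spread over a wide range within each group. Tpm1, a tropomyosin (0.74 ± 0.14), Vcl, the adhesion protein vinculin (0.77 ± 0.16), Pdlim5, a PDZ and LIM protein of actin filaments (0.61 ± 0.13), and Dstn, an actin-depolymerising protein (0.57 ± 0.14), had adjusted p from 0.00737 to 0.0433. With the term for Y-linked transcripts these 4 ran from 0.32 ± 0.19 for Dstn to 0.60 ± 0.20 for Tpm1. In the split none of the 4 was called. They ran there from 0.15 ± 0.21 for Tpm1 (adjusted p = 0.732) to 0.47 ± 0.20 for Vcl (adjusted p = 0.183). Pdlim5 (0.48 ± 0.12) and Dstn (0.51 ± 0.11) were also called between the hCG groups, and Tpm1 (0.42 ± 0.14, adjusted p = 0.0638) and Vcl (0.47 ± 0.17, adjusted p = 0.109) were not.

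The other large rises were in genes of mixed function. Gng2, a γ subunit of heterotrimeric G proteins, was at 18.1 to 78.9 CPM (median 58.2) in the Tspan8-high and 5.84 to 42.5 CPM (median 23.1) in the Tspan8-low group (1.18 ± 0.23, adjusted p = 0.00699). It was called in the split of libraries with Y-linked transcripts (0.92, adjusted p = 0.0367), which are drawn from the same controls. Between the hCG groups it missed the threshold (0.60 ± 0.20, adjusted p = 0.0643). Nav3, a microtubule-binding navigator protein, was at 1.36 to 42.8 CPM against 0 to 25.3 CPM (1.83 ± 0.40, adjusted p = 0.0173), with 13 of 14 high libraries above the low median. With the term for Y-linked transcripts Gng2 was at 0.79 ± 0.30 and Nav3 at 1.11 ± 0.53, and in the split Nav3 was at 0.56 ± 0.46 (adjusted p = 0.53). Plscr1, a phospholipid scramblase (1.16 ± 0.27), Gulp1, an engulfment adaptor (1.10 ± 0.26), Shisal2b (1.23 ± 0.30) and Igdcc3 (1.16 ± 0.28) had adjusted p from 0.0193 to 0.0333. With the term these 4 ran from 0.53 ± 0.34 for Gulp1 to 0.86 ± 0.39 for Igdcc3, and in the split none was called, with Plscr1 at 0.46 ± 0.33 (adjusted p = 0.452). Of these, Nav3 (1.12 ± 0.25), Plscr1 (1.31 ± 0.26), Gulp1 (1.31 ± 0.29) and Shisal2b (0.92 ± 0.27) were called between the hCG groups and Igdcc3 (0.92 ± 0.28, adjusted p = 0.0515) was not. Lgals1, which encodes a secreted galectin and was named after its values were seen, was at 1365 to 3463 CPM against 703 to 2396 CPM (0.79 ± 0.17, adjusted p = 0.0155).

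Among the lower genes, enzymes of small-molecule metabolism had several of the smallest p-values, again a grouping made after the values were seen. Ephx1, the microsomal epoxide hydrolase, was at 12.7 to 47.7 CPM (median 22.4) in the Tspan8-high and 27.3 to 132 CPM (median 76.1) in the Tspan8-low group. All 14 high libraries lay below the low median, and the low medians were 75.1 CPM with and 77.0 CPM without Y-linked transcripts. The log2 difference was −1.36 ± 0.23 (adjusted p = 0.00415), −1.29 ± 0.32 with the term (adjusted p = 0.617), and −0.17 ± 0.20 between the hCG groups (adjusted p = 0.713). In the split of libraries with Y-linked transcripts it was −0.84 ± 0.34 (adjusted p = 0.16). Gpd1l, a relative of glycerol-3-phosphate dehydrogenase, was at 52.3 to 197 CPM (median 107) against 125 to 445 CPM (median 220.0). Its log2 difference of −1.03 ± 0.19 (adjusted p = 0.00469) was −0.55 ± 0.23 with the term and −1.20 ± 0.25 between the hCG groups (adjusted p = 0.00589). Isyna1, the inositol-3-phosphate synthase (−1.14 ± 0.20, adjusted p = 0.00469; −0.66 ± 0.26 with the term), and Sord, sorbitol dehydrogenase (−0.73 ± 0.15, adjusted p = 0.0106), lay below the low median in 13 and 14 of the 14 high libraries. Dgat2, an enzyme of triglyceride synthesis, differed by −1.36 ± 0.35 (adjusted p = 0.0444). Between the hCG groups Sord (−0.48 ± 0.11, adjusted p = 0.00888) was called, Isyna1 (−0.60 ± 0.28, adjusted p = 0.229) and Dgat2 (−0.42 ± 0.42, adjusted p = 0.636) were not.

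A few lower genes encode chaperones or proteins of protein turnover, named together after the values were seen. Hspb8, a small heat shock protein, was at 3.62 to 28.7 CPM (median 12.8) in the Tspan8-high and 16.6 to 84.5 CPM (median 36.6) in the Tspan8-low group. Every high library lay below the low median. The log2 difference was −1.58 ± 0.28 (adjusted p = 0.00469), −1.45 ± 0.39 with the term and −1.05 ± 0.20 between the hCG groups (adjusted p = 0.0025). The split of libraries with Y-linked transcripts gave −1.35 ± 0.37 (adjusted p = 0.0501). Sqstm1, the autophagy receptor p62, was at 26.1 to 180.2 CPM (median 68.5) against 97.3 to 616 CPM (median 186), with a log2 difference of −1.30 ± 0.27 (adjusted p = 0.0114; −0.95 ± 0.20 between the hCG groups, adjusted p = 0.00527). Stip1, a co-chaperone of HSP70 and HSP90 (−0.81 ± 0.16), and the proteasome subunits Psmd1 (−0.53 ± 0.13) and Psmd12 (−0.61 ± 0.15) had adjusted p from 0.00699 to 0.0322. Both proteasome genes were also called in the split of libraries with Y-linked transcripts, which reuses the same control libraries (−0.69 and −0.79, adjusted p = 0.0189 and 0.0161). With the term in the limma fit they differed by −0.52 ± 0.18 and −0.72 ± 0.20 (adjusted p = 0.6725 and 0.617). Between the hCG groups limma called Psmd12 (−0.35 ± 0.10, adjusted p = 0.03745) and Stip1 (−0.58 ± 0.17, adjusted p = 0.04225). Psmd1 was not called there (−0.22 ± 0.14, adjusted p = 0.4045). Sqstm1, Stip1 and Psmd12 were named after their values were seen.

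Several of the largest falls outside the X chromosome were in genes at low levels. Slc4a5, a sodium bicarbonate cotransporter, was at 0 to 14.7 CPM (median 5.90) in the Tspan8-high and 6.59 to 36.2 CPM (median 15.4) in the Tspan8-low group (−2.07 ± 0.40, adjusted p = 0.00699; −1.87 ± 0.55 with the term). Between the hCG groups it differed by −0.43 ± 0.25 (adjusted p = 0.35). Pcbp3, an RNA-binding protein gene (−1.85 ± 0.37), Snhg11, a noncoding snoRNA host transcript (−1.83 ± 0.43), Tap1, the antigen peptide transporter (−1.66 ± 0.37), Cpxm1, a carboxypeptidase relative (−1.60 ± 0.33), Sgsm3 (−1.49 ± 0.38) and Zyg11a (−1.39 ± 0.32) had adjusted p from 0.00737 to 0.0464. Of these 7, only Snhg11 was called between the hCG groups (−0.96 ± 0.24, adjusted p = 0.015).

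The calls of 18 genes named here lay close to the threshold. Each of these lost its call when any 1 of between 5 and 22 single libraries was left out, with adjusted p between 0.0504 and 0.11. They were Mbnl3, Gsta4, Gulp1, Cystm1, Lcp1, Dstn, Shisal2b, Igdcc3, Snhg11, Sgsm3, Dgat2, Cldn6, Mdm2, Hk1, Psmd1, Psmd12, Tspan7 and Tsix. The other 37 called genes named here kept their call whichever library was left out. With edgeR on estimated reads 29 of the 55 stayed called. Besides the 5 Y-linked genes, the calls lost were those of Elf5, Mbnl3, Lama1, Gsta4, Myl9, Nav3, Lcp1, Igdcc3, Cldn6, Mdm2, Hk1, Slc4a5, Pcbp3, Snhg11, Tap1, Sgsm3, Zyg11a, Dgat2, Psmd1, Psmd12 and Tspan7, with adjusted p from 0.0557 to 0.181.

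In the hCG blastocysts the same ranking gave more calls, 322 higher (3.03%) and 207 lower genes (1.95%), 4.98% together. Of the 31 autosomal genes higher in the Tspan8-high control group, 30 differed in the same direction between the hCG groups and 17 were called there. Of the 48 lower autosomal genes, all 48 had the same direction and 14 were called. Over all 10185 autosomal genes, 50.35% of the hCG differences were below 0, with 2.985% of genes called higher and 2.003% lower. Among the 5 Y-linked genes 3 had the same direction and none was called, and among the 15 lower X-linked genes 10 had the same direction and 1 was called. The hCG libraries are separate from the control libraries, so this is the one comparison here in which the genes were chosen in one set and measured in another. In the other direction, 266 of the 322 higher hCG genes had the same direction in the control groups and 18 were called (5.59% of them). For the 207 lower hCG genes these counts were 193 and 15 (7.25%). Over all 10619 genes, 54.36% of the control differences were below 0, with 0.348% of genes called higher and 0.593% lower. Leaving out the 5 hCG libraries with both Xist and Y-linked transcripts gave 207 higher and 136 lower genes. Of 365 X-linked genes, 15 were higher and 2 lower between the hCG groups, with a median of 0.10 and 38.9% of differences below 0. Estimated reads there were 6072478 ± 1345692 (SD, n = 14) in the Tspan8-high and 5139638 ± 668882 (SD, n = 14) in the Tspan8-low group (permutation, adjusted p = 0.0779), and the part of depth in these counts was not tested.

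The difference between the arms was tested directly. The high-minus-low difference in the hCG blastocysts was subtracted from that in the controls, with its sign. In limma, 0 genes passed with a positive result (0%, 257 at an unadjusted p under 0.05) and 1 with a negative result (0.00942%, 535 unadjusted). Negative results include genes that fell further in the controls, so the sign does not give the size of a difference. No other tool was run on this contrast. A gene called in one arm and not in the other, such as Ephx1 or Taf1, is therefore not shown to differ between them.

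**Figure D4:**
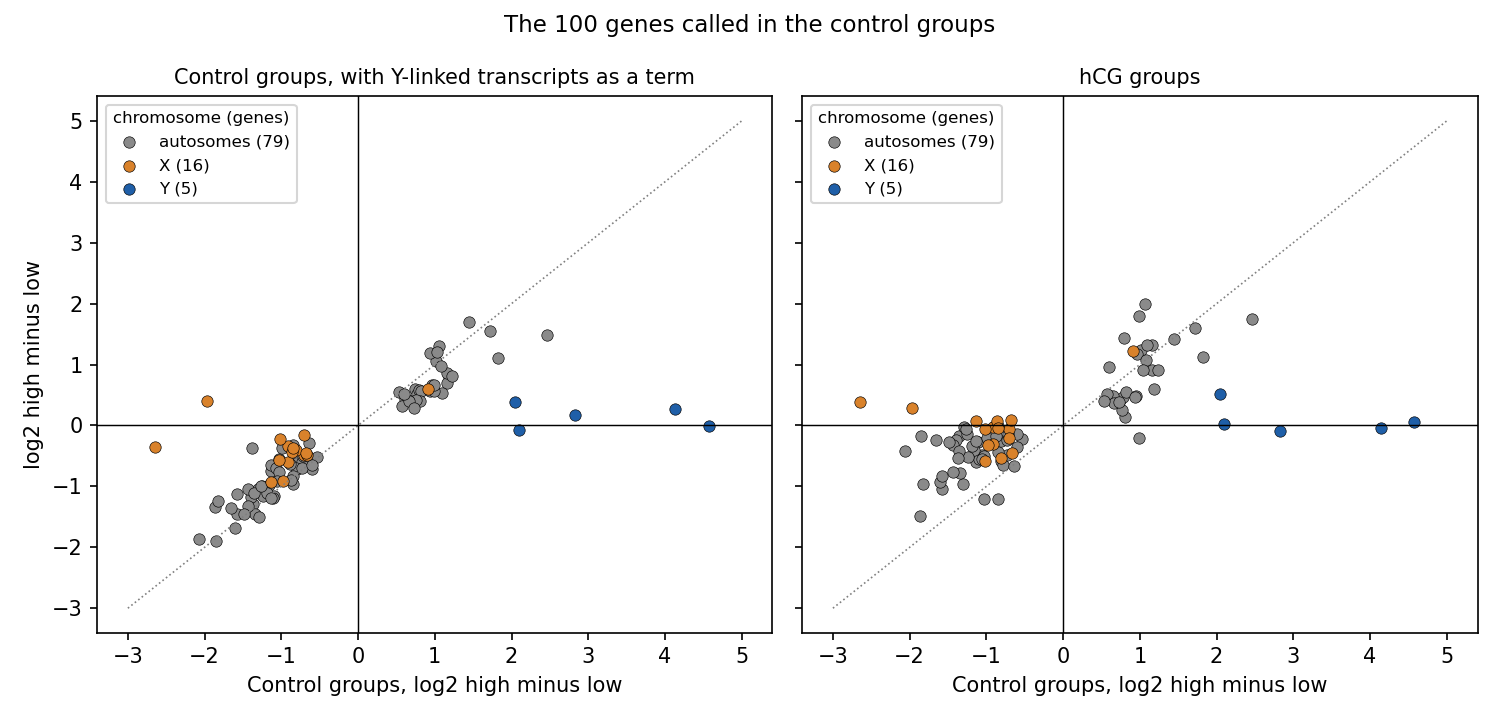
Log2 difference of the 100 genes called in the control groups (x axis) against the same difference with Y-linked transcripts as a term (left) and between the hCG groups (right). Grey points are autosomal, orange X-linked and blue Y-linked genes, and the dotted line marks equal values. The 5 Y-linked genes fall to between −0.07 and 0.38 on the left, while the 31 higher and 48 lower autosomal genes keep their sign.

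The genes whose levels followed Tspan8 most closely were ranked by Spearman correlation across the 28 control libraries, which share depth and composition. Ddx3y came first at 0.836, ahead of Thap12 (0.827), the kinase gene Sgk3 (0.808), Pdlim5 (0.807), Gulp1 (0.807) and Gng2 (0.797), and then of Lima1 (0.773), Cystm1 (0.759), Cib2 (0.755) and Lyplal1 (0.754). The lowest were Gpd1l (−0.799), Isyna1 (−0.782), Hspb8 (−0.779), Psmd1 (−0.774) and Sord (−0.764). Within the 19 libraries with Y-linked transcripts the correlation was still 0.696 for Ddx3y, 0.793 for Cystm1, 0.477 for Pdlim5 and −0.781 for Psmd1. The other called Y-linked genes had lower values there, 0.388 for Kdm5d, 0.372 for Usp9y, 0.109 for Eif2s3y and 0.014 for Uty. Thap12 and Lyplal1 were not called between the control groups (0.66 ± 0.18, adjusted p = 0.0582, and 0.94 ± 0.34, adjusted p = 0.176), whereas Sgk3 (0.81 ± 0.18, adjusted p = 0.0179; 0.41 ± 0.23 with the term for Y-linked transcripts), Cib2 (0.82 ± 0.18, adjusted p = 0.0173) and Cystm1 (0.54 ± 0.14, adjusted p = 0.0433) were.

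Levels in oocytes, the cells before fertilisation, were looked up for the called genes. At least 1 CPM on average was reached in the 6 control oocytes by 19 of 33 matched higher genes (57.6%), 40 of 62 matched lower genes (64.5%) and 77.5% of all 10181 matched genes, with medians of 1.29, 4.50 and 11 CPM. The oocyte and blastocyst tables were made and normalised separately, so these levels are placed side by side and were not tested.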

How the data were processed

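Smart-seq2 RNA libraries of 28 Ctrl and 28 hCG blastocysts were used, with 6 Ctrl oocytes for reference; the offspring tissue and bisulfite samples were not used here. The deposited blastocyst table holds a signal. Each library has its own smallest unit, from 39.3 to 238 in the controls, and 89.3% to 93.5% of values divide by it within 0.005 of a whole number. Values were therefore taken as estimated reads times an unexplained factor per library. Division by that unit gave estimated reads and division by the column total gave CPM. The deposited oocyte table holds counts. Per the submitters' processing notes, tools included STAR 2.7.6a, HTSeq 0.12.4 and Trim Galore 0.6.4 with mm10 and GRCm38; which made which table is not given in the sources used here. Printed log2 differences and correlations with Tspan8 carry TMM factors. CPM values, including those used for the ranking, do not.

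Genes passing edgeR's low-count filter (10 reads in about 14 libraries, 15 in total; edgeR 4.0.16) were tested in R 4.3.3 with limma 3.58.1 (trend, robust, two-sided) on log2(TMM-normalised CPM + 1), so folds of low genes are understated. Tspan8 was left out of the test. Adjusted p-values are Benjamini-Hochberg over 10619 genes, with a threshold of 0.05. Errors of log2 differences are SE. A library counted as having Y-linked transcripts at 10 CPM or more. Permutation tests of library measures used 100000 resamples. RefSeq positions (GRCm38.p6) matched 99.4% of genes tested.

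Members and the 19 gene lists were chosen with earlier results of these data known, so no list is independent evidence. Genes named were the 12 largest called rises and 12 largest falls (mean of at least 5 CPM, informative symbol, 75% of high libraries past the low median), up to 4 called members of each list or its 2 most abundant, trophectoderm transcription factors, and the 10 highest and 5 lowest in correlation with Tspan8; not all are described, and others are marked as chosen after their values were seen. Alternatives covered scaling, pseudocount, filter, edgeR, DESeq2 1.42.0, covariates, other splits and single libraries left out; the method was tested on simulated data.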

Additional observations from a re-analysis of the deposited data

Results flagged for a closer look

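Xkrx, an X-linked relative of the XK membrane proteins, was the 1 gene whose difference between Tspan8-high and Tspan8-low blastocysts differed between the control and hCG arms (limma, control minus hCG −2.92 ± 0.50 on the log2 scale, adjusted p = 0.00163). In the controls it was at 0 to 16.5 CPM (median 5.57) in the Tspan8-high and 2.69 to 22.9 CPM (median 8.26) in the Tspan8-low group, a log2 difference of −0.62 ± 0.36 (adjusted p = 0.442). In the hCG blastocysts it was at 2.36 to 24.6 CPM (median 7.33) in the Tspan8-high and 0 to 4.84 CPM (median 0.423) in the Tspan8-low group, a log2 difference of 2.33 ± 0.32 (adjusted p = 0.000106). The call was lost with Tspan8 as a continuous predictor and with a term for Y-linked transcripts.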

How the results depend on the processing

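In the controls the counts of 37 higher and 63 lower genes depended on the setting. They were 3 and 5 with deposited values unscaled (where the median of all genes moved to −0.35), 24 and 39 without a filter, 20 and 32 with edgeR, 113 and 112 with DESeq2, and 105 and 105 with continuous log2 Tspan8. The lower count was 26 for the 7 highest against the 7 lowest libraries, 101 without ranks 13 to 16 and 41 with log2 reads as a covariate. Settings built on Y-linked transcripts gave 0 and 0 as a covariate, 0 and 0 as a covariate with continuous Tspan8, 0 and 0 in the 19 libraries that have them, with or without Ctrl 12 and 26, 1 and 9 in those 19 with continuous Tspan8, and 171 lower in their split of 9 against 9. Of these only the first was planned; the others, those leaving out Ctrl 12 and 26 and the hCG settings on both RNAs or Y-linked transcripts were chosen after seeing the data. The other settings moved neither count by over 1.5 times. Leaving out single libraries gave 22 to 46 higher and 36 to 77 lower genes; the higher count moved by over 1.5 times without Ctrl 14, 16, 18, 19 or 21 (22 to 24), and the lower without Ctrl 5, 7, 10, 18, 19, 21, 27 or 28 (36 to 41). The hCG counts were 912 and 655 with continuous Tspan8 and 207 and 136 without the 5 libraries with both RNAs. The 1 gene differing between arms became 0 with continuous Tspan8 and 0 with a term for Y-linked transcripts. Of 55 called genes named, 51 stayed called with plain CPM, 29 with edgeR, 48 with DESeq2 and 0 with the covariate; none turned direction outside the Y-linked settings. There Eif2s3y turned to −0.01, −0.01 and −0.07, Uty to −0.07, −0.07, −0.07 and −0.05, and Tsix to 0.40, 0.40, 0.52, 0.65, 0.29 and 0.44. Uncalled Gata3 turned to 0.26 and 0.02, Arid3a to 0.05 and Nanog to 0.18 and 0.06. Apart from these constructions the cause was not tested. No paired analysis was possible because mother and litter are not given and replicate numbers define no pairing, each library standing in 1 group only. Counts of 1 to 10 CPM rest on few reads in the shallower libraries.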

Other observations

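The split of control libraries with Y-linked transcripts into the 9 highest and 9 lowest in Tspan8 called genes that the full comparison did not. Its 9 highest included Ctrl 12 and 26, the libraries with the fewest genes, and it was not repeated without them. The genes below were picked out after their values were seen. Fabp3, a fatty acid binding protein gene, differed by 0.92 on the log2 scale (limma, adjusted p = 0.00929; 0.51 ± 0.16 in the full comparison, adjusted p = 0.118), and the uroplakin gene Upk1b by 1.06 (adjusted p = 0.0379; 0.67 ± 0.22, adjusted p = 0.135). On the low side were Slc2a1, the glucose transporter GLUT1 (−1.54, adjusted p = 0.00916; −1.0 ± 0.28, adjusted p = 0.0853), Ctsd, the lysosomal protease cathepsin D (−1.23, adjusted p = 0.00658; −0.78 ± 0.25, adjusted p = 0.127), Ldha, lactate dehydrogenase (−1.75, adjusted p = 0.0367; −0.37 ± 0.40, adjusted p = 0.714), and the keratin Krt18 (−1.30, adjusted p = 0.0234; −0.27 ± 0.34, adjusted p = 0.762). Glycolysis genes, a list picked for its calls there, had 4 lower members of 15 in that split, where 1.61% of all genes were lower, and a median of −0.55 against −0.07 over all genes. Between the hCG groups 1 of the 15 was higher and none lower, with a median of 0.15.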
